A study of Mus musculus with 6 samples.

Results

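The 50 genes described here run the cell's DNA replication and division programme, and they were taken by name from a list that gives each gene a phase. Of these, 26 act at the G1/S boundary or in DNA replication and 24 act in G2 or mitosis. Each of the 50 names was found among the 24393 genes listed in the count files, and each also passed the filter on low counts that left 13600 genes for testing. The lowest count of any member in any library was 70, for Gins1 in CONTROL replicate 1, so low depth set no limit on whether a member could be measured.

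RNA was sequenced from 6 libraries of differentiated KH2 mouse embryonic stem cells, 3 titled CONTROL and 3 titled HOXA13. KH2 is an embryonic stem cell line in which a transgene can be placed behind a promoter that answers to doxycycline, and the labels give its strain as C57/BL/6. In the HOXA13 group the transgene was a FLAG-tagged human HOXA13, and the construct carried by the CONTROL cells, and whether each replicate is its own clone, are not given in the sources used here. Cells of both groups were differentiated toward definitive endoderm on a layer of M15 feeder cells with Activin-A, bFGF, CHIR and Noggin, received doxycycline at 1.25 µg/ml from day 4, were sorted on day 6 for CXCR4 and E-cadherin, and were cultured for a further day with doxycycline. The comparison addresses what induced HOXA13 does to the transcriptome of these cells, and p-values below measure only the spread between these libraries.

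Before a cell copies its genome, the origin recognition complex, Cdc6 and Cdt1 load the MCM ring onto DNA in G1, and geminin holds Cdt1 back once S phase has begun. Cdc45 and the GINS complex then join MCM to form the active helicase, and cyclin D with Cdk4 or Cdk6 and cyclin E with Cdk2 drive the entry into S phase, in large part by releasing E2F transcription factors from the Rb family. Genes of late G2 and mitosis are switched on later in the cycle by the MuvB core with B-Myb and FoxM1, often through CCAAT boxes and a cell cycle homology region (CHR) near the start site. Because most of these transcripts come and go with the cycle, their level in a bulk library follows the share of cells that are cycling as well as the level in each cell, and fewer cells of a type and less RNA per cell cannot be told apart here.

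The promoters of the phases held different shares of 3 motifs. RefSeq start sites on GRCm38.p6 were matched for 38 of the 50 members by symbol, 19 in each phase, and a window from 250 bases before to 50 bases after the start was searched on both strands. A gene with several start sites in the table, such as Mcm7, was counted once, with a motif in any of its windows. The E2F motif, searched as TTTCCCGC, TTTCGCGC, TTTGCCGC or TTTGGCGC, was in 8 of 19 G1/S genes (42.1%) and in 1 of 19 G2/M genes (5.26%), against 2.60% of all 27025 genes counted in the same way. The CHR, searched as TTTGAA or TTCGAA, was in 3 of 19 G1/S genes (15.8%) and 15 of 19 G2/M genes (78.9%), against 21.7% of all genes. The CCAAT box was in 68.4% of G1/S genes, 94.7% of G2/M genes and 41.1% of all genes, and every G2/M gene with a CHR also had a CCAAT box in the same window, a pair found in 8.61% of all genes. A match is a run of letters and was not tested for binding.

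The 120 bases before the start site are shown for the 4 members on chromosome 1, whose fold changes are compared with their chromosome further on, and for a further 3 that carry the CHR. They lie at chr1:20820313-20820432 (Mcm3, minus strand), chr1:128359706-128359825 (Mcm6, minus strand), chr1:191821353-191821472 (Nek2, plus strand), chr1:189688087-189688206 (Cenpf, minus strand), chr4:118437344-118437463 (Cdc20, minus strand), chr19:37376262-37376381 (Kif11, plus strand) and chr7:135716380-135716499 (Mki67, minus strand). Each is written 5′ to 3′ on the gene's own strand and ends at the base before the start, and capitals mark an E2F motif, a CHR or a CCAAT box on either strand, so that ATTGG is a CCAAT box and TTCAAA a CHR read from the opposite strand.
Mcm3: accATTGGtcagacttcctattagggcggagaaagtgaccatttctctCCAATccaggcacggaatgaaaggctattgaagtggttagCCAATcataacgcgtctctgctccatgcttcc
Mcm6: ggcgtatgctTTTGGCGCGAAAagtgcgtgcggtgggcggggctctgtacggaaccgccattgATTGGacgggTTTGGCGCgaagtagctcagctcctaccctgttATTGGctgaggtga
Nek2: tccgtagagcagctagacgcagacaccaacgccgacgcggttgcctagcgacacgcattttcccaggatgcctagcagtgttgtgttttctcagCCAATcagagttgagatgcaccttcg
Cenpf: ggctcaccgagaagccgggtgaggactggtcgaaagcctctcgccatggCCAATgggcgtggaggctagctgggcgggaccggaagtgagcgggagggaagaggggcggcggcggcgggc
Cdc20: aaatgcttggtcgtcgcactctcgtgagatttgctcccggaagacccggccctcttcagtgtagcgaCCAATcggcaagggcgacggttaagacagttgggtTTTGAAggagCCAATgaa
Kif11: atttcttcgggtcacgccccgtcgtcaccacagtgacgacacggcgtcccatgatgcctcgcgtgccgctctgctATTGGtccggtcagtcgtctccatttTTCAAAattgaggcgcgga
Mki67: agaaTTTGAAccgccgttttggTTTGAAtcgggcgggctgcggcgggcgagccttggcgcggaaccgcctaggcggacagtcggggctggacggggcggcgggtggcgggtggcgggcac
Mcm6, a helicase subunit, has E2F motifs on both strands that overlap in the first run of capitals, and another between its 2 CCAAT boxes. In Mcm3 the E2F motifs lay after the start, outside the printed bases. Cdc20 has a CHR between 2 CCAAT boxes, and Mki67 has 2 CHR copies. Nek2 had CCAAT boxes but no CHR or E2F motif in these letters, while the TTTGAA of Cenpf began 3 bases into the transcript.

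The libraries held between 12279884 and 17331638 counts. A row under a human identifier, ENSG00000106031, which may hold the transgene, had no count in the CONTROL libraries and 192, 449 and 398 CPM (counts scaled to the size of the library) in HOXA13 replicates 1 to 3. CONTROL replicate 2 stood apart from the rest of its group: the rank correlation across genes was 0.977 between CONTROL replicates 1 and 3 but 0.908 and 0.931 between CONTROL replicate 2 and those libraries, against 0.963 to 0.986 within HOXA13. For this reason the main results are given with and without it. Of the 12 markers of definitive endoderm, Cer1 was at 0 in every library and 5 of the 10 tested had positive and 5 negative log2 fold changes. Over the 6 libraries Sox17 lay between 0.975 and 4.84 CPM, Cxcr4 between 2.25 and 11.3, Gata4 between 13.1 and 31.9 and Eomes between 24.4 and 111. Cdh1, the gene of the sort marker E-cadherin, measured 192, 1292 and 702 CPM in CONTROL replicates 1 to 3. In HOXA13 replicates 1 to 3 it measured 1732, 1690 and 1893 CPM.

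Most of the 50 genes had a higher mean in HOXA13 than in CONTROL, but none passed the test when all 6 libraries were used. With p-values from the quasi-likelihood model of edgeR, adjusted by Benjamini-Hochberg over all genes, 0 of 50 members were called at 0.05, where 0.309% of all genes were called, 0.265% higher and 0.0441% lower. The smallest adjusted p of any member in that edgeR fit was 0.185. At an unadjusted p under 0.05 there were 6 members, 5 higher and 1 lower, against 14.1% of all genes in either direction and 8.05% higher. DESeq2 called 1 member, Nek2, as higher, where it called 5.05% of all genes and 3.11% as higher, and limma voom with sample quality weights called 28 higher and 2 lower, where it called 15.4% of all genes, 9.11% higher and 6.34% lower.

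By direction alone, 46 of the 50 fold changes were positive, where 48.8% of all genes were. The median log2 fold change was 0.32, against -0.01 for all genes tested. All 24 G2/M members were above 0, with log2 fold changes from 0.20 to 1.53 and a median of 0.45. Of the 26 G1/S members, 22 were positive, with a range from -1.40 to 0.85 and a median of 0.24. The 3 HOXA13 libraries lay wholly above the 3 CONTROL libraries for Mcm6, Cdc6, Pola1, Nek2 and Cenpf, which is 5 of 50, where 11.5% of all genes did so. They lay wholly below for Gins2 and Ccnd1, where 8.52% of all genes did so.

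**Figure D1:**
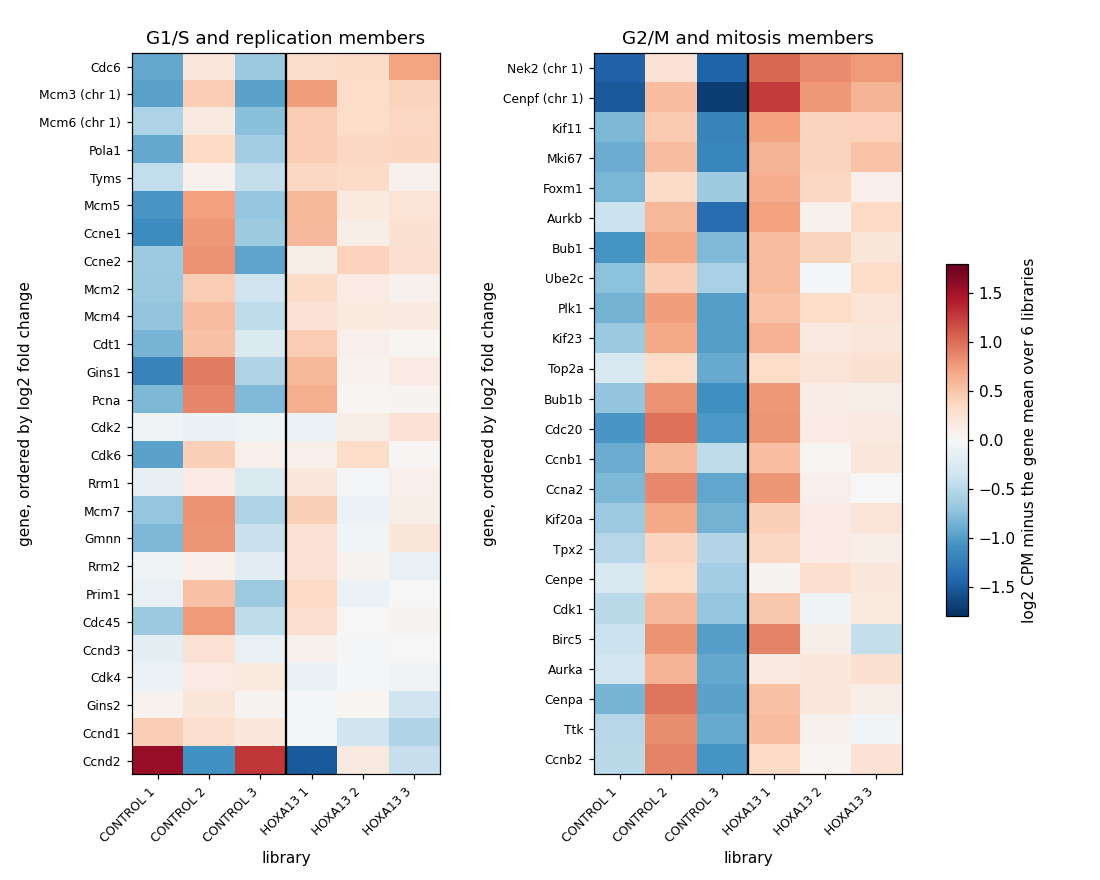
Each row is a member and each column a library, and colour gives log2 CPM minus the gene's mean over the 6 libraries, with genes ordered by log2 fold change within each phase. CONTROL replicates 1 and 3 are blue for most genes, CONTROL replicate 2 is red for most, as are the HOXA13 columns, and Ccnd2 at the foot of the G1/S panel runs the other way.

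The CONTROL libraries were themselves split. CONTROL replicates 1 and 3 were the lowest pair of the 6 libraries for 42 of the 50 members, where this held for 19.5% of all genes, and CONTROL replicate 2 lay above both of them for 46 members, where it did for 39.9% of all genes. For 33 members, 17 of G1/S and 16 of G2/M, CONTROL replicate 2 also lay above all 3 HOXA13 libraries, where it did for 29.3% of all genes. The median coefficient of variation of the members was 59.8% in CONTROL and 13.8% in HOXA13, against 27.6% and 18.9% for all genes. Together the 50 members took 0.377%, 0.717% and 0.370% of CPM in CONTROL replicates 1 to 3, and 0.695%, 0.581% and 0.576% in HOXA13 replicates 1 to 3. The highest and the lowest of these shares were thus both CONTROL libraries.

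Without CONTROL replicate 2, edgeR called 35 of the 50 members, 33 higher and 2 lower, where it called 14.2% of all genes, 7.92% higher and 6.32% lower. The 33 were 11 G1/S and 22 G2/M members, and the 2 lower were the cyclins Ccnd1 and Ccnd2. The median log2 fold change became 0.70 for G1/S and 1.13 for G2/M members. All 30 members that voom called were among these 35. Voom estimated its library weights from these same counts, so this overlap is not separate support. Leaving out any other single library gave 0 calls among the members in edgeR, and 0 to 7 calls among all genes. In those fits 2 to 5 of the 50 members had an unadjusted p under 0.05, where 7.76% to 10.9% of all genes did.

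**Figure D2:**
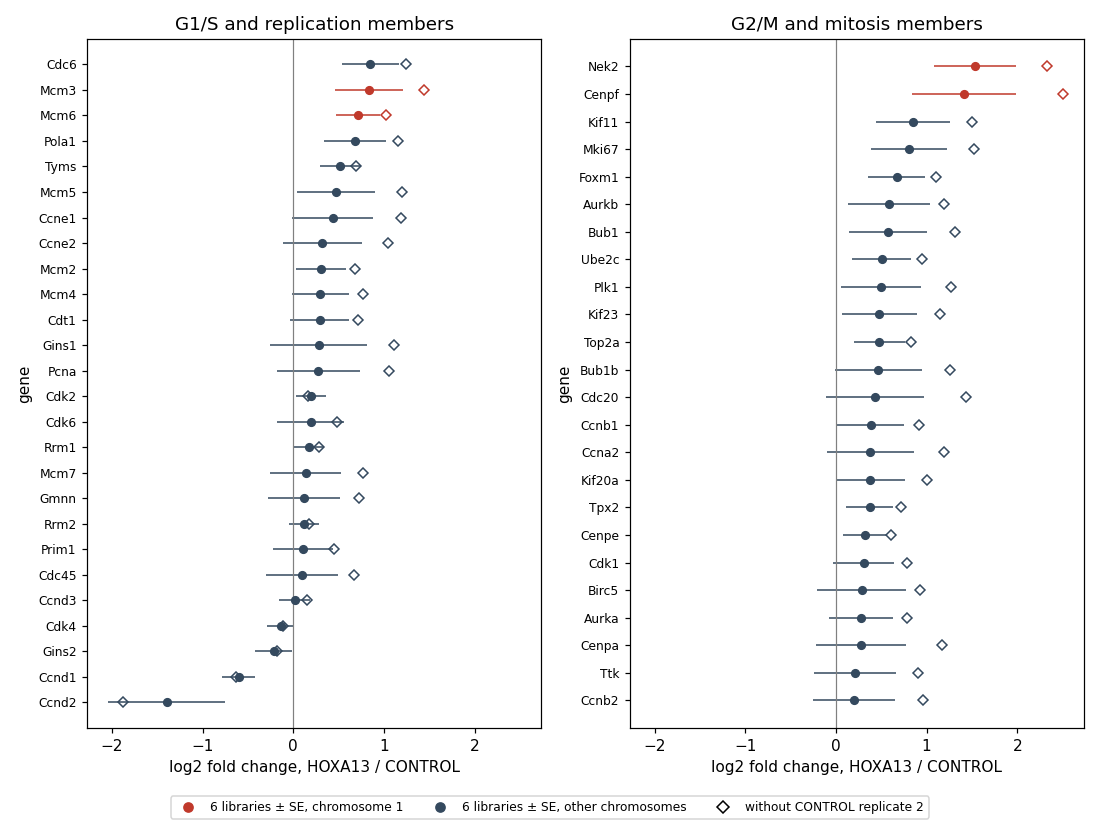
Log2 fold change of HOXA13 over CONTROL for each member, as filled points with bars of ± 1 SE from the fit of 6 libraries, and as open diamonds from the fit without CONTROL replicate 2. Red marks the 4 members on chromosome 1, and for most members above 0 the diamond lies to the right of the filled point, reaching 2.5 for Cenpf.

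The MCM subunits form the ring that unwinds DNA at the fork. All 6 had positive log2 fold changes, with a median of 0.39 and none called by edgeR, 1 of them (Mcm6) at an unadjusted p under 0.05. Mcm7, at 0.14, fell as low as -0.15 with single libraries left out. Leaving out CONTROL replicate 2 brought the median to 0.90, with all 6 called higher by edgeR, where it called 7.92% of all genes higher. Voom, which called 9.11% of all genes higher, called 4 of the subunits higher. Their levels as RPKM, which scales counts to exon length as well as library size, summed over the 6 subunits, were 192, 479 and 215 in CONTROL replicates 1 to 3 and 473, 385 and 395 in HOXA13 replicates 1 to 3. HOXA13 therefore sat near the level of CONTROL replicate 2 and well above CONTROL replicates 1 and 3. Mcm5 alone spanned 117, 404 and 149 CPM in CONTROL and 369, 273 and 287 in HOXA13, with a fold change of 0.47 ± 0.43 on the log2 scale (SE; edgeR adjusted p = 0.702), which became 1.20 (edgeR adjusted p = 0.00551) without CONTROL replicate 2 and ranged in adjusted p up to 0.975 over the alternatives.

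Cdc6, the ATPase that helps load MCM at origins, had the largest positive fold change of the G1/S members. It measured 21.5, 46.8 and 25.4 CPM in CONTROL replicates 1 to 3 and 50.6, 51.6 and 66.6 in HOXA13, so the groups did not overlap. Means were 31.2 ± 13.6 and 56.3 ± 8.97 CPM (SD, n = 3 each), a log2 fold change of 0.85 ± 0.31 (SE; edgeR adjusted p = 0.277). The gene lies on chromosome 11 (mm9, chr11:98769115-98785254, plus strand), where the median log2 fold change of expressed genes was -0.17. That median rested on CONTROL replicate 1. Median log2 deviations of the chromosome were 0.38, -0.12 and -0.04 in CONTROL replicates 1 to 3 and -0.09, -0.05 and -0.06 in HOXA13. Without CONTROL replicate 2 the log2 fold change of Cdc6 was 1.25 (edgeR adjusted p = 0.00753; range over the alternatives 0.00689 to 0.702). The other licensing members, Cdt1 and its inhibitor geminin (Gmnn), had log2 fold changes of 0.29 and 0.12. They were 0.71 and 0.72 without CONTROL replicate 2, and edgeR called neither in either fit. With other single libraries left out, Cdt1 fell as low as 4.7e-05 and Gmnn as low as -0.19, so the sign of Gmnn turned.

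Pola1, the catalytic subunit of the polymerase that primes new strands, also separated the groups. It measured 13.1, 32.1 and 16.1 CPM in CONTROL and 33.8, 32.3 and 32.5 in HOXA13, with CONTROL replicate 2 just under the lowest HOXA13 library. The log2 fold change was 0.68 ± 0.34 (SE; edgeR adjusted p = 0.428), and 1.15 (edgeR adjusted p = 0.0133; range up to 0.800) without CONTROL replicate 2. It is an X-linked gene with the lowest mean RPKM of the G1/S members, 3.03. The sliding clamp Pcna measured 53.1, 171 and 53.5 CPM in CONTROL and 144, 95.7 and 96.2 in HOXA13, so that CONTROL replicate 2 was the highest of all. That gave a log2 fold change of 0.28 ± 0.45 (SE; edgeR adjusted p = 0.845), which was 1.05 (edgeR adjusted p = 0.0136; range up to 0.998) without that library. With another single library left out, Pcna fell as low as -0.027. Its reads are uncertain because the mouse genome holds a near-identical copy of 1257 bases elsewhere.

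The 3 genes of nucleotide supply split the CONTROL libraries less than the MCM genes did, with median log2 deviations of -0.15, 0.09 and -0.26 in CONTROL replicates 1 to 3 against -0.71, 0.50 and -0.63. Tyms, which makes thymidylate, measured 26.8, 38.5 and 27.1 CPM in CONTROL and 47.4, 46.2 and 38.4 in HOXA13, where the lowest HOXA13 library fell just below CONTROL replicate 2. That gave a log2 fold change of 0.52 ± 0.22 (SE; edgeR adjusted p = 0.354). Rrm1 and Rrm2, the subunits of ribonucleotide reductase, had log2 fold changes of 0.17 and 0.12, and none of the 3 was called in the fit without CONTROL replicate 2. Of the helicase activators, Gins2 had a negative fold change, with 35.1, 38.9 and 34.8 CPM in CONTROL and 32.9, 34.4 and 26.3 in HOXA13. The gap between its groups was small, the log2 fold change was -0.22 ± 0.20 (SE; edgeR adjusted p = 0.703), and its partners Gins1 and Cdc45 had values of 0.28 and 0.10. With single libraries left out, Gins1 fell as low as -0.11 and Cdc45 as low as -0.18. None of these helicase activators was called without CONTROL replicate 2, where their median was 0.67.

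The D cyclins, which carry growth signals to Cdk4 and Cdk6, differed from most replication genes in that 2 of the 3 had negative fold changes, none of them called in the fit of 6 libraries. Ccnd1 measured 254, 231 and 215 CPM in CONTROL and 185, 147 and 129 in HOXA13, with no overlap and with CONTROL replicate 2 in the middle of its group. Means were 233 ± 19.9 and 154 ± 28.4 CPM (SD, n = 3 each), a log2 fold change of -0.60 ± 0.18 (SE; edgeR adjusted p = 0.185). Without CONTROL replicate 2 it was -0.63 (edgeR adjusted p = 0.0491; range over the alternatives 0.0113 to 0.615).

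Ccnd2 split the CONTROL libraries in the opposite way to the replication genes. It measured 192, 30.5 and 159 CPM in CONTROL and 22.8, 73.0 and 48.9 in HOXA13, so that CONTROL replicate 2 fell inside the HOXA13 range. The log2 fold change was -1.40 ± 0.65 (SE; edgeR adjusted p = 0.387), and -1.87 (edgeR adjusted p = 0.0134; range 0.0134 to 0.762) without CONTROL replicate 2. Ccnd3 measured 89.0 to 119 CPM in CONTROL and 96.7 to 105 in HOXA13, a log2 fold change of 0.02 ± 0.17 (SE) whose sign turned under other scalings, and a near-identical copy elsewhere makes its reads uncertain. Per length, Ccnd2 made up 24.2%, 4.54% and 22.5% of the summed RPKM of the 3 D cyclins in CONTROL replicates 1 to 3, and 4.05%, 13.6% and 9.92% in HOXA13. The summed RPKM of the D cyclins was 139.6, 118 and 124 in CONTROL and 98.9, 94 and 86.4 in HOXA13, which did not overlap.

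The kinases that the G1 cyclins bind had small fold changes in either direction. Cdk4 had the highest mean RPKM of the G1/S members, 138, and measured 412, 492 and 501 CPM in CONTROL and 411, 440.1 and 425 in HOXA13. Its log2 fold change was -0.14 ± 0.15 (SE), that of Cdk2 was 0.19 ± 0.16 and that of Cdk6 was 0.19 ± 0.36, with edgeR adjusted p of 0.747, 0.670 and 0.868. Cdk6 measured 9.22, 24.4 and 19.3 CPM in CONTROL and 19.2, 22.8 and 18.3 in HOXA13, and its value was imprecise, running from -0.14 to 0.48 with single libraries left out. Cdk2 stayed between 71.3 and 74.8 CPM in CONTROL and between 72.5 and 92.8 in HOXA13. The E cyclins that pair with Cdk2 had log2 fold changes of 0.43 (Ccne1) and 0.32 (Ccne2), with CONTROL replicate 2 above every other library for both. Without it they were 1.19 and 1.05 (edgeR adjusted p = 0.00887 and 0.0130; ranges up to 0.987 and 0.9996).

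In the G2/M group, no role stood apart from the others in direction. Median log2 fold changes were 0.38 for the 8 genes of mitotic entry, 0.39 for the 6 of the kinetochore and its checkpoint, and 0.43 for the 4 of the spindle and cytokinesis. They were 0.43 for the passenger genes Aurkb and Birc5, and 0.64 for Top2a and Mki67, which act on chromosome structure. For Cdc20 and Ube2c, the genes of the anaphase ubiquitin ligase, the median was 0.46. None of these genes was called by edgeR in the fit of 6 libraries, with Nek2 and Cenpf at an unadjusted p under 0.05. In the fit without CONTROL replicate 2 the same medians were 1.03, 1.21, 1.08, 1.06, 1.17 and 1.19. EdgeR then called 8, 5, 4, 1, 2 and 2 of these genes, all higher, where it called 7.92% of all genes higher. The summed CPM of the 24 G2/M members divided by that of the 26 G1/S members was 0.534, 0.801 and 0.435 in CONTROL replicates 1 to 3, and 0.863, 0.776 and 0.774 in HOXA13. HOXA13 replicate 1 had the highest ratio and CONTROL replicate 3 the lowest, and CONTROL replicate 2 lay within the HOXA13 range.

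Among the G2/M members off chromosome 1, Kif11, the motor that pushes spindle poles apart, had the largest fold change. It measured 37.0, 90.3 and 28.3 CPM in CONTROL and 108, 85.5 and 86.9 in HOXA13, a log2 fold change of 0.85 ± 0.40 (SE; edgeR adjusted p = 0.404). Mki67, the proliferation marker that coats mitotic chromosomes, measured 56.2, 153 and 46.2 CPM in CONTROL and 159, 138 and 149.6 in HOXA13. Both had CONTROL replicate 2 inside the HOXA13 range. Mki67 had a log2 fold change of 0.81 ± 0.42 (SE; edgeR adjusted p = 0.444), and without CONTROL replicate 2 the values were 1.5 for Kif11 and 1.52 for Mki67 (edgeR adjusted p = 0.00303 and 0.00129).

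Foxm1, the factor that switches on mitotic genes, measured 73.6, 164 and 83.5 CPM in CONTROL and 205, 169 and 138 in HOXA13. A copy of 466 bases of its transcript on chromosome 3 makes part of its reads uncertain. Its log2 fold change was 0.67 ± 0.32 (SE; edgeR adjusted p = 0.397) and 1.10 (edgeR adjusted p = 0.00802) without CONTROL replicate 2. Cdc20, the activator of the anaphase-promoting complex, had the highest mean RPKM of the G2/M members, 93.4. It measured 73.0, 299.9 and 73.6 CPM in CONTROL and 263, 168 and 169 in HOXA13, so CONTROL replicate 2 was the highest of the 6 libraries and the other CONTROL libraries the lowest. The log2 fold change was 0.43 ± 0.54 (SE; edgeR adjusted p = 0.791), and 1.43 (edgeR adjusted p = 0.00511; range up to 0.988) without CONTROL replicate 2.

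At the low end were Ccnb2, Ttk and Cenpa. Ccnb2, a cyclin of mitotic entry, measured 35.7, 93.2 and 23.9 CPM in CONTROL and 64.1, 51.4 and 60.3 in HOXA13. The log2 fold change of Ccnb2 was 0.20 ± 0.45 (SE; edgeR adjusted p = 0.893), the smallest of the 24. Ttk, the checkpoint kinase with the lowest mean RPKM of the phase at 9.18, and Cenpa, the histone that marks centromeres, had log2 fold changes of 0.21 ± 0.45 and 0.27 ± 0.49 (SE). All 3 had their highest level in CONTROL replicate 2, and their sign turned when CONTROL replicate 1 or 3 was left out.

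**Figure D3:**
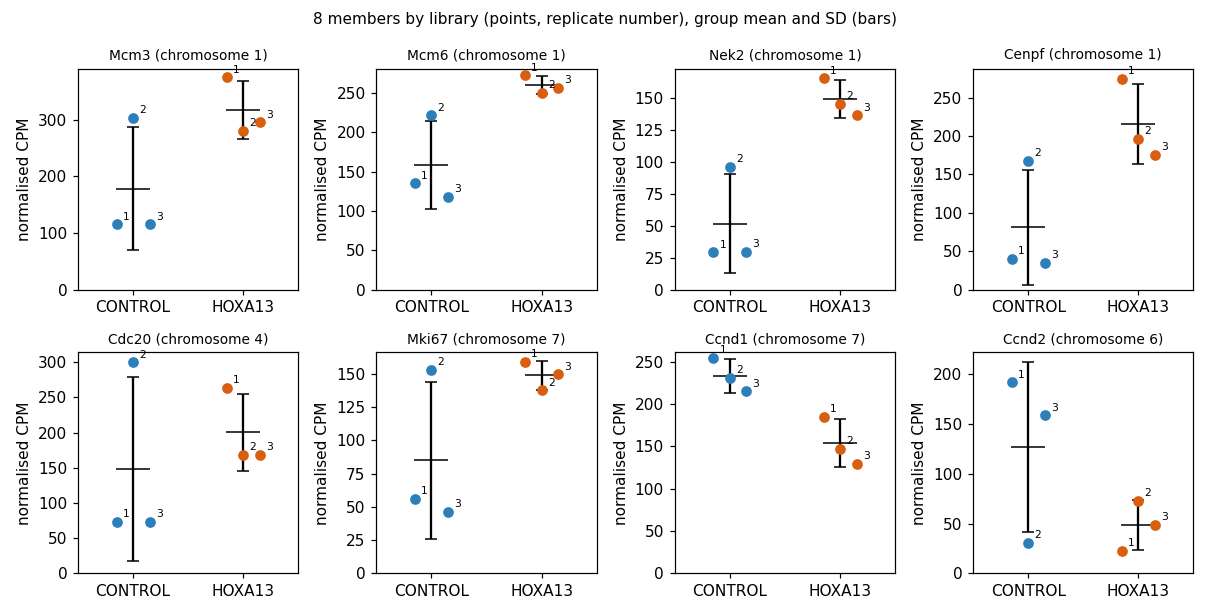
Normalised CPM of 8 members in each library, with points numbered by replicate, the group mean as a horizontal line and ± 1 SD as a bar (n = 3). In Mcm3, Nek2, Cenpf, Cdc20 and Mki67 the CONTROL points split into a high replicate 2 and low replicates 1 and 3, Ccnd2 shows the mirror image, and Ccnd1 separates the groups without such a split.

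The 4 members on chromosome 1, Mcm3, Mcm6, Nek2 and Cenpf, were all among the 7 largest positive fold changes in the set. Their median log2 fold change was 1.12, against 0.31 for the 46 members on other chromosomes. Chromosome 1 as a whole was higher in HOXA13: 470 of its genes had a mean level of 16 CPM or more, their median was 0.53, and 92.1% of them were above 0. The groups did not overlap, with HOXA13 higher, for 44.0% of the 737 tested genes of chromosome 1, and edgeR called 2.31% of them. Unlike the members, the chromosome median did not split the CONTROL group, with median log2 deviations of -0.31, -0.33 and -0.22 in CONTROL replicates 1 to 3 and 0.31, 0.26 and 0.31 in HOXA13.

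Nek2, a kinase that parts the centrosomes before mitosis, had the largest fold change of the 50. It measured 29.3, 96.3 and 29.7 CPM in CONTROL and 166, 146 and 137 in HOXA13, with every HOXA13 library above CONTROL replicate 2. Means were 51.8 ± 38.5 and 149 ± 14.9 CPM (SD, n = 3 each). The log2 fold change was 1.53 ± 0.45 (SE; edgeR adjusted p = 0.185), and it was 1.22 to 2.32 with single libraries left out. DESeq2 gave an adjusted p of 0.0135 and edgeR without CONTROL replicate 2 one of 0.000349, in a range over the alternatives up to 0.547. The gene spans chr1:193645323-193656929 on the plus strand of mm9, and 644 bases of its transcript, 20% of it, have a copy on chromosome 18 at 98.1% identity, so the split of those reads is uncertain.

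Cenpf, a large protein of the outer kinetochore that builds up in G2, lies nearby at chr1:191464478-191511965 on the minus strand of mm9. It measured 40.1, 168 and 34.9 CPM in CONTROL and 274, 196 and 175 in HOXA13, so that CONTROL replicate 2 came just under the lowest HOXA13 library. This gave a log2 fold change of 1.41 ± 0.57 (SE; edgeR adjusted p = 0.320). Without CONTROL replicate 2 it was 2.5 (edgeR adjusted p = 0.000754; range up to 0.669), the largest of any member in that fit.

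Mcm6 (mm9, chr1:130228168-130256233, minus strand) measured 135, 222 and 118 CPM in CONTROL and 273, 251 and 256 in HOXA13, again with no overlap. Its log2 fold change was 0.71 ± 0.24 (SE; edgeR adjusted p = 0.240). Mcm3 (mm9, chr1:20793055-20810359, minus strand) measured 115, 303 and 115 CPM in CONTROL and 375, 280.3 and 296 in HOXA13, where CONTROL replicate 2 exceeded HOXA13 replicates 2 and 3. Its log2 fold change was 0.83 ± 0.38 (SE; edgeR adjusted p = 0.377), and both genes passed the test without CONTROL replicate 2, at 1.02 and 1.44 (edgeR adjusted p = 0.00392 and 0.00187; ranges up to 0.883 and 0.857).

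Set against their chromosome, the 4 members were not alike. Among the 470 genes, Nek2 had rank 30 and Cenpf rank 38 by log2 fold change, while Mcm3 had rank 102 and Mcm6 rank 146. None of the 10 expressed genes nearest to Nek2, whose median was 0.88, and none of the 10 nearest to Cenpf, whose median was 0.49, exceeded the member's own value. Of the 10 nearest to Mcm3, 3 did, and of the 10 nearest to Mcm6, 6 did. When each chromosome's median difference between libraries was taken out, the log2 fold changes were 0.94 for Nek2, 0.81 for Cenpf, 0.24 for Mcm3 and 0.13 for Mcm6, and their median was 0.53, against 0.31 for the other members. In that fit edgeR called 0 members and 0.0% of all genes. At an unadjusted p under 0.05 it had 2 members, and the share of all genes at that p is not given here. Why chromosome 1 differed between the groups, and its part in these 4 values, was not tested.

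**Figure D4:**
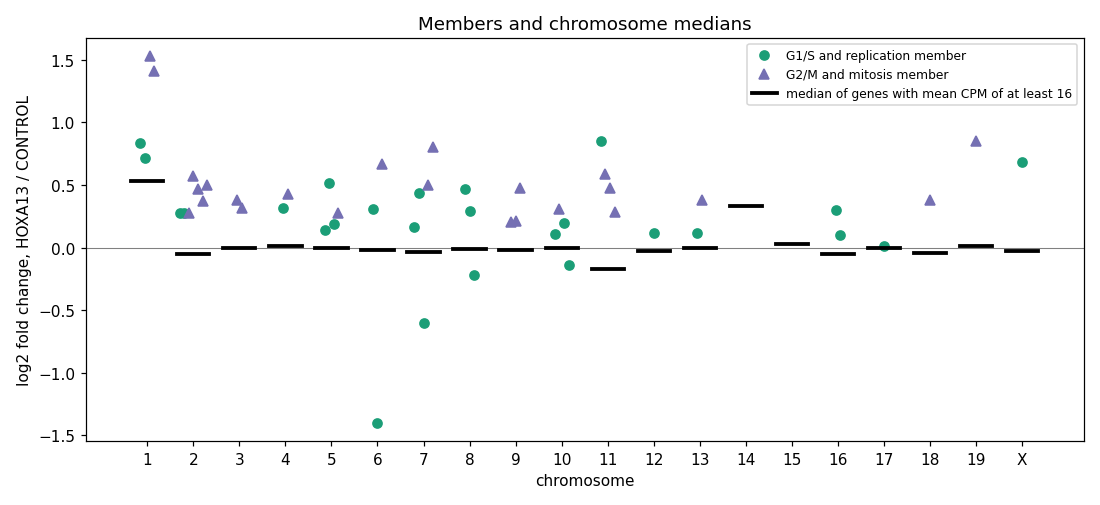
Log2 fold change of each member by chromosome, circles for G1/S and triangles for G2/M, with a bar at the median of genes whose mean reached 16 CPM. The chromosome 1 bar at 0.53 lies well above most others, with Mcm3 and Mcm6 close above it and Nek2 and Cenpf far above it, while 42 of the 46 members elsewhere are above 0 and Ccnd2, Ccnd1, Gins2 and Cdk4 lie below their bars. Chromosome 14, with a bar at 0.33, holds no member.

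Members on other chromosomes had mostly the same direction. The 22 G2/M members on other chromosomes were all positive, their median log2 fold change being 0.40, while 20 of the 24 G1/S members there were positive, with a median of 0.19. None of these 46 was called by edgeR in the fit of 6 libraries, and 3 had an unadjusted p under 0.05, where 14.1% of all genes did. In the fit without CONTROL replicate 2 edgeR called 29 of them higher and 2 lower, where it called 7.92% and 6.32% of all genes.

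Summed levels of cell type markers are given here for the same libraries. Of the 48 markers tested edgeR called 0, with 13 at an unadjusted p under 0.05, where DESeq2 called 2, voom 19 and edgeR without CONTROL replicate 2 called 22. The shares of all genes in those counts were 0.309%, 14.1%, 5.05%, 15.4% and 14.2%. For the 10 epithelial markers every log2 fold change was positive, with a median of 1.24, and their summed CPM was 1675, 5694 and 3988 in CONTROL and 6786 to 8591 in HOXA13. Of the 12 mesenchymal or fibroblast markers 10 had negative log2 fold changes, with Prrx1 and Acta2 at 0 in HOXA13 replicate 1. The 12 summed to 10159, 2697 and 8251 CPM in CONTROL and 2229.6, 5729 and 5667 in HOXA13. Most of the HOXA13 sums was Fn1, a chromosome 1 gene with a positive log2 fold change of 0.35. Fn1 measured 3374, 2033 and 3728 CPM in CONTROL and 1997, 4631 and 4976 in HOXA13. Vim measured 4351, 547.5 and 3576 CPM in CONTROL and 155, 722 and 481 in HOXA13. Of the 10 pluripotency markers 4 had positive and 6 negative log2 fold changes in the fit of 6 libraries, with a median of -0.43. They summed to 157, 1543 and 248.7 CPM in CONTROL and 828, 503 and 485 in HOXA13, with Tdgf1 at 0 in HOXA13 replicate 3. CONTROL replicate 2 thus had the highest pluripotency sum and the second lowest mesenchymal sum, and it is the library with the highest level of 31 of the 50 members. For the 10 endoderm markers tested the median log2 fold change was 0.23, and the 12 listed summed to 109.9 to 189 CPM in CONTROL and 74.7 to 117 in HOXA13, in which Eomes was the largest term in every library. The 8 markers of the mesonephric lineage of the feeder cells summed to 70.4 to 81.5 CPM in CONTROL and 31 to 53.1 in HOXA13, with Wt1, Pax2 and Tcf21 at 0 in some libraries. All 6 of these markers that were tested had negative log2 fold changes, with a median of -1.15. The part of these cell types in the members' levels was not tested.

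**Figure D5:**
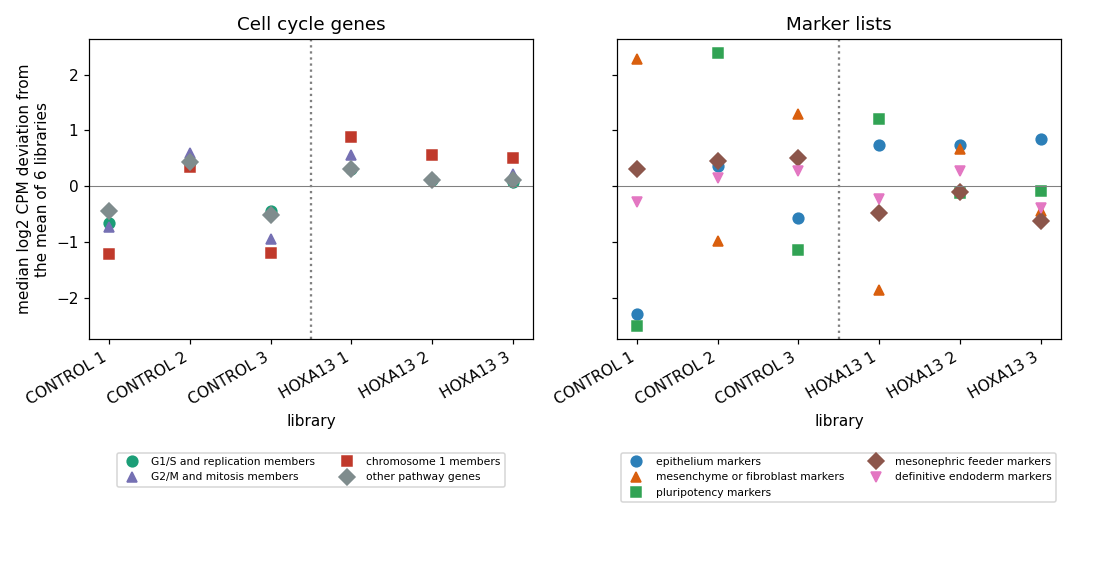
Median deviation of log2 CPM from the mean of the 6 libraries, for groups of cell cycle genes on the left and lists of cell type markers on the right. The cell cycle groups are low in CONTROL replicates 1 and 3 and above 0 in the other 4 libraries, where the pluripotency list is also above its level in CONTROL replicates 1 and 3 and the mesenchymal list is below it.

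The wider pathway was read from a further list of 167 genes in the files, of which 166 were tested. Of these, 121 were higher and 45 lower, with a median log2 fold change of 0.25, where 48.8% of all genes were higher. EdgeR called 1, higher, where it called 0.265% of all genes higher, and 15 had an unadjusted p under 0.05, all higher, where 8.05% of all genes did. The called gene was Lin9, a subunit of the MuvB core, which lies on chromosome 1. It measured 20.9, 33.1 and 23.6 CPM in CONTROL and 71.2, 73.4 and 78.0 in HOXA13, with every HOXA13 library above every CONTROL library and CONTROL replicate 2 the highest of its group. This was a log2 fold change of 1.52 ± 0.22 (SE; edgeR adjusted p = 0.0470; range 2.88e-06 to 0.353), and 0.94 with the chromosome's shift taken out.

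All 10 genes of that list on chromosome 1 had positive log2 fold changes, whose median was 1.04, against 0.22 for the 156 tested genes elsewhere. On the chromosome as a whole 92.1% of expressed genes were positive, and with each chromosome's shift taken out the medians of these lists were 0.45 and 0.24. After Lin9 the largest were the mitotic motor Kif14 (1.36), the kinetochore gene Cenpl (1.30), the spindle pole gene Aspm (1.19) and Nuf2 (1.14), which anchors microtubules. Dtl (0.95), Exo1 (0.92), Nsl1 (0.84), Prim2 (0.84) and Orc2 (0.70) completed it, and none of these 9 was called by edgeR in the fit of 6 libraries. Motors, spindle and cytokinesis genes had the highest group median, 0.57 with 24 of 25 higher, and the E2F, Rb and MuvB regulators were spread around 0, with a median of -0.04 and 7 of 18 higher. Without CONTROL replicate 2 edgeR called 61 genes of the list higher and 1 lower, where it called 7.92% and 6.32% of all genes.

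A list of genes that act against the cycle or answer to p53 held 7 inhibitors of cyclin-dependent kinases (the Cdkn genes) and 5 p53-response genes (Btg2, Ccng1, Gadd45a, Trp53inp1 and Mdm2). Of the 7 inhibitors 4 had positive and 3 negative log2 fold changes, and of the 5 p53-response genes 1 was positive and 4 negative. None of the 12 was called by edgeR with 6 libraries, and 3 had an unadjusted p under 0.05, where 14.1% of all genes did. Without CONTROL replicate 2 edgeR called 1 higher and 3 lower, all of them Cdkn genes, where it called 7.92% and 6.32% of all genes. Cdkn1a (p21), an inhibitor induced by p53, measured 921, 426 and 941 CPM in CONTROL and 334, 602 and 573 in HOXA13, with CONTROL replicate 2 below the rest of its group. Its log2 fold change was -0.60 ± 0.34 (SE; edgeR adjusted p = 0.496), and -0.90 (edgeR adjusted p = 0.0356; range up to 0.814) without that library. Cdkn1b (p27), which binds cyclin E with Cdk2, measured 13.6, 24 and 13 CPM in CONTROL and 33.4, 36.8 and 30 in HOXA13, with no overlap and a log2 fold change of 0.98 ± 0.29 (SE; edgeR adjusted p = 0.186). Leaving out CONTROL replicate 2, the value was 1.31 (edgeR adjusted p = 0.00840; range up to 0.547). These inhibitors were picked for mention after their values were seen.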

How the data were processed

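RNA was measured in 3 CONTROL and 3 HOXA13 libraries, grouped by their titles. The authors deposited raw counts of reads for each gene symbol, made from stranded poly-A libraries aligned to mm9 with TopHat (version 2.0.14 in the submitters' processing notes) and counted with HTSeq 0.6.1p1. Annotation, strand setting and the handling of multiply aligned reads are not given in the sources used here, so antisense, overlapping and near-identical genes are uncertain. Of the members, 7 have a copy of at least 95% identity over at least 300 bases (Ccnb1, Ccnd3, Foxm1, Mcm7, Nek2, Pcna, Rrm2).

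Counts were filtered in R 4.3.3 with edgeR 4.0.16 (filterByExpr by group, minimum count 10, minimum total 15; 13600 genes kept), scaled by TMM and compared by glmQLFit and glmQLFTest with group as the only term, p-values being adjusted by Benjamini-Hochberg over all genes at a threshold of 0.05. CPM used TMM library sizes. RPKM used union exon lengths of GENCODE M1 on mm9, which also gave positions. Alternatives were RLE and upper quartile scaling, no filter, a required mean of 50 counts, DESeq2 1.42.0, limma 3.58.1 voom with sample quality weights, the replicate number as a block, an offset for each chromosome's median, edgeR's newer method and each library left out. The code was tested on simulated data.

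The members and all lists were chosen with earlier results of these data known, and so was the rule for named genes: members called, on chromosome 1 or without overlap, the 5 largest and 3 smallest log2 fold changes of each phase, the D cyclins with Cdk2, Cdk4 and Cdk6, and the highest and lowest mean RPKM of each phase, with other pathway genes called or on chromosome 1. Other members and inhibitors given with values (Mcm5, Pcna, Cdt1, Gmnn, Rrm1, Rrm2, Gins1, Cdc45, Ccne1, Ccne2, Cdkn1a, Cdkn1b) were picked after their values were seen. The depth of 12279884 to 17331638 counts covers counting error only.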

Additional observations from a re-analysis of the deposited data

How the results depend on the processing

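Among the single libraries left out, CONTROL replicate 2 changed the number of calls most. Whether that library or the rest of its group is the unusual part was not tested. EdgeR called 42 of 13600 genes, and over the genes each setting tested the calls were 163 of 17697 unfiltered, 9 of 11292 when a mean of 50 counts was required, 722 of 14298 in DESeq2, 2101 of 13600 in voom, 106 of 13600 with edgeR's newer method (chosen after seeing the data), 0 of 12467 with the chromosome offset and 0 to 2006 with single libraries left out, the highest being of 14084 without CONTROL replicate 2. Members called were 0, with 6 at an unadjusted p under 0.05, and 1 in DESeq2, 30 in voom, and 0 to 35 with single libraries left out. Members without overlap were 7, and 7 to 45 with single libraries left out. Against CONTROL replicates 1 and 3 alone, HOXA13 lay wholly above for 42 members and wholly below for 3. Of the 13600 genes tested, 3436 lay wholly above and 3257 wholly below in that comparison. With the chromosome offset 3 members were without overlap, and the share of all genes in that setting is not given here. Other pathway genes called were 1, and 0 with RLE scaling, upper quartile scaling, a required mean of 50 counts or the chromosome offset, 5 in DESeq2, 53 in voom and 0 to 62 with single libraries left out. With single libraries left out, median log2 fold changes ran from 0.032 to 0.70 for G1/S members, 0.18 to 1.13 for G2/M members, 0.81 to 1.88 on chromosome 1, 0.084 to 0.91 on other chromosomes and 0.059 to 0.66 for other pathway genes, each highest without CONTROL replicate 2. Apart from the fewer samples, the cause was not tested.

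The replicate numbers come from the titles only, and same-numbered libraries did not deviate together (mean correlation -0.13, against 0.07 for different numbers). With the replicate number as a block edgeR called 0 genes in all, 0 members and 0 other pathway genes. At an unadjusted p under 0.05 there were 8 members, and the share of all genes at that p is not given here. The medians were 0.34 (G1/S), 0.60 (G2/M), 1.39 (chromosome 1), 0.48 (other chromosomes) and 0.36 (other pathway genes).

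Of 31 named genes 5 turned sign. Ccnd3 was at -0.0044 with RLE scaling, -0.0045 in DESeq2, -0.025 with upper quartile scaling, -0.0066 unfiltered, -0.013 with a required mean of 50 counts, -0.0085 with the chromosome offset and as low as -0.080 with single libraries left out, up to 0.15. With single libraries left out Ccnb2 ran from -0.16 to 0.96, Ttk from -0.11 to 0.90, Cenpa from -0.062 to 1.17 and Cdk6 from -0.14 to 0.48. Lin9 lost its call in 10 alternatives, and 23 genes gained one in at least 1. Members not among the 31 named genes also turned sign with single libraries left out. Their lowest log2 fold changes included -0.19 (Gmnn), -0.18 (Cdc45), -0.15 (Mcm7), -0.15 (Prim1), -0.11 (Gins1) and -0.027 (Pcna). Rrm2 and Ccne2 came to -0.0019 and -0.0010. The lowest member count was 70.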
